A study of Mus musculus with 10 samples.

Results

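The Zfp genes are mouse protein-coding genes whose symbol is Zfp followed by 1 to 3 digits, and 367 of 21774 protein-coding genes annotated by RefSeq on GRCm38.p6 met this rule. They were looked up in the lists of transcription start sites (TSSs) that the study assigned to ARID2 cluster-1 (Cl-1), the TSSs with ARID2 signal above the control. ARID2 is the DNA-binding subunit that defines PBAF, a form of the SWI/SNF chromatin remodelling complex that contains the ATPase BRG1. ARID2 was mapped by CUT&RUN, in which a nuclease tethered to an antibody cuts out the DNA around the bound protein, in spermatogenic cells of CD1 mice at postnatal day (P) 28 and P28.5. All groups came from testes synchronized by gavage with the retinoic acid synthesis inhibitor WIN18,446 from P1 to P10 and 1 injection of retinoic acid at P11, so the ages correspond to 17 and 17.5 days after retinoic acid. Each age had 2 ARID2 libraries, 2 BRG1 libraries and 1 control library without primary antibody, and no mutant animals were used. The cell suspensions were enriched for late prophase-I and metaphase spermatocytes by timing and were not sorted, so other testis cells can be present. A single list per age was made from the averaged ARID2 replicates, so neither a signal level nor a spread between replicates was available for any gene, and no test was made.

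Most Zfp genes encode C2H2 zinc finger proteins, in which short repeats folded around a zinc ion by a pair of cysteines and a pair of histidines read DNA in series. A large subset also carries a KRAB domain, which recruits TRIM28 and, through it, histone methylation and HP1 proteins that silence retrotransposons and some imprinted genes. KRAB zinc finger genes arose by repeated tandem duplication and lie in clusters on a few chromosomes, whereas many conserved Zfp genes stand alone and act in transcription, splicing or cell division.

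The C2H2 pattern, searched in 1 protein per gene, was found at least 1 time in 356 of the 367 Zfp proteins and at least 3 times in 337. A KRAB pattern, widened after the values were seen, was found in 177, and domains that depart from it are missed. The 11 proteins without a C2H2 pattern were Zfp36, Zfp185, Zfp330, Zfp365, Zfp474, Zfp503, Zfp703, Zfp750, Zfp839, Zfp957 and Zfp972. Zfp36 is the mRNA decay factor tristetraprolin, whose fingers are of another type. Of these 11 genes only Zfp839 was listed, with 4 rows at P28 and none at P28.5. The members were spread over 20 chromosomes, with 90 on chromosome 7, 41 on chromosome 17 and 32 on chromosome 13. None of the 7 X-linked members was listed at either age, which allows a share of up to 42.9% (3 counts of 7). Hardly any X-linked gene of any kind was listed, with 0 of 963 at P28 (upper limit 0.312%) and 2 at P28.5, or 0.208% (0.0570 to 0.754).

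Starts of 6 Zfp genes are shown because they span what was found at listed and unlisted genes. Each is a RefSeq promoter of GRCm38.p6 from 250 bases before to 50 after a start, written 5′ to 3′, with CpG dinucleotides in capitals. Of a gene's windows the one holding the most listed positions is shown, or the first where none held any. Zfp292 had the highest and Zfp821 the lowest CpG ratio at the outermost 5′ end among the genes named for their role or their number of positions. The Zfp821 window shown is at another of its starts, where 6 of its 7 listed positions fell. Zfp738 is the 1 member of the largest cluster listed by symbol and Zfp65 its nearest unlisted neighbour there. Zfp207 and Zfp148 were added after their values were seen, as a gene listed at P28 alone and a gene listed at both ages.
Zfp292, chr4:34882899-34883198, minus strand: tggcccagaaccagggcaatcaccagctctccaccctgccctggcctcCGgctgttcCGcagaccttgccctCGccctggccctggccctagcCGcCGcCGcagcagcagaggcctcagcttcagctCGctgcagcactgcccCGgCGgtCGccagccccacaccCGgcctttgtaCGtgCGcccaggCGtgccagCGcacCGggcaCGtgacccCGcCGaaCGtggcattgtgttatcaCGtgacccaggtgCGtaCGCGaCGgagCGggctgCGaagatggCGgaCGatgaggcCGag
Zfp821, chr8:109705296-109705595, plus strand: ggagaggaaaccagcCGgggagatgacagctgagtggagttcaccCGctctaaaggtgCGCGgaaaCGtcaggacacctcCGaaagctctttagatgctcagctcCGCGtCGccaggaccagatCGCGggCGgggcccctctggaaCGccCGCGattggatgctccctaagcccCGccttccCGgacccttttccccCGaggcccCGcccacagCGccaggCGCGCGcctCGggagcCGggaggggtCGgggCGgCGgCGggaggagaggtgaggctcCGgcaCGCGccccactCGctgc
Zfp738, chr13:67683463-67683762, minus strand: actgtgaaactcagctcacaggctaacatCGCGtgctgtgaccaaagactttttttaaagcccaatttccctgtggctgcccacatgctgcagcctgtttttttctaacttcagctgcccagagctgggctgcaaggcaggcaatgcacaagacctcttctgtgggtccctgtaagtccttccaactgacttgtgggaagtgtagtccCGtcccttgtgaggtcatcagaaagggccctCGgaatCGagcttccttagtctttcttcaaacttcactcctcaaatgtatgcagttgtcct
Zfp65, chr13:67729124-67729423, minus strand: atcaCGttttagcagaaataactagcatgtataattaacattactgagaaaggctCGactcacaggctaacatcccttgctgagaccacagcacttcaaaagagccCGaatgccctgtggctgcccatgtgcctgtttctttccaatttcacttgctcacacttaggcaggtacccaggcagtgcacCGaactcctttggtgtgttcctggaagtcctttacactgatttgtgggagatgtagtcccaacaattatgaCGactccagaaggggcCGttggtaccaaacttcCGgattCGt
Zfp207, chr11:80383029-80383328, plus strand: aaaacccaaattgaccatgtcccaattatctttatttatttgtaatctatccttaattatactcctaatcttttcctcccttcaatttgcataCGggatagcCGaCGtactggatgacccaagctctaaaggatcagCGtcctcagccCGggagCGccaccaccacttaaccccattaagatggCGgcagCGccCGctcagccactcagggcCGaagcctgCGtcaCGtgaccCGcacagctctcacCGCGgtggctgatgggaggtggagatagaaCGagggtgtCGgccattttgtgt
Zfp148, chr16:33380525-33380824, plus strand: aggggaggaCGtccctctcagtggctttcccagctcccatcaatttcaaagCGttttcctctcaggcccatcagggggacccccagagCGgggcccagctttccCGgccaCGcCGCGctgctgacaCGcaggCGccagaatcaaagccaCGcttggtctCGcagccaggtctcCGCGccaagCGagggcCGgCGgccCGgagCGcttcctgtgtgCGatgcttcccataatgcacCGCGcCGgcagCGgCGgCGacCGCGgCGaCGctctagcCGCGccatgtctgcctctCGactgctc
The 300 bases held 33 CpG dinucleotides in Zfp821, 32 in Zfp148, 30 in Zfp292 and 17 in Zfp207. The windows of the clustered genes held 5 in Zfp738 and 8 in Zfp65. Zfp292, Zfp738 and Zfp65 lie on the minus strand, where few starts were listed, and Zfp821, Zfp148 and Zfp207 on the plus strand. Zfp292 and Zfp65 were listed at neither age. Listing and strand therefore cannot be told apart in these windows. All 6 positions of Zfp207 lay inside its window, and 2 positions of Zfp148 lay inside its window at each age. The listed position of Zfp738 was 10570 bp from the edge of its window.

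A Zfp gene was counted as listed when a row of a Cl-1 list carried its symbol. By this count 72 of 367 Zfp genes were listed at P28, which is 19.6% (95% Wilson interval 15.9 to 24.0), beside 16.8% of all protein-coding genes. At P28.5, 55 were listed, or 15% (11.7 to 19.0), beside 11.6%. At both ages 41 were listed, or 11.2% (8.34 to 14.8), beside 8.48%. Zfp genes were thus 2.8, 3.4 and 2.7 percentage points above the background. The lower bound of the Zfp interval was under the background at P28 and at both ages, and at P28.5 it was 11.7% beside 11.6%. These intervals cover counting error alone and treat genes as independent, which members of a cluster need not be.

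Listing at 1 age was common. Of the 86 Zfp genes listed at either age, 31 were at P28 alone, 14 at P28.5 alone and 41 at both, which left 281 at neither. Of the Zfp genes listed at P28, 56.9% were also listed at P28.5, beside 50.5% of all genes. Of those listed at P28.5, 74.5% were also listed at P28, beside 73.1%. The lists also differed in size, with 11553 rows at P28 and 8514 at P28.5, and the part of list size in these differences was not tested. The paper reports more round spermatids and fewer leptotene and zygotene spermatocytes at P28.5. It also reports that a smaller share of the listed TSSs overlapped called ARID2 peaks at P28.5 than at P28. The part of cell composition and of peak overlap was not tested either.

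The shares differed widely between the strands. Among plus-strand members 59 of 190 were listed at P28, or 31.1% (24.9 to 38), beside 26.0% of plus-strand genes, and 48 at P28.5, or 25.3% (19.6 to 31.9), beside 20.4%. Among minus-strand members 13 of 177 were listed at P28, or 7.34%, beside 7.61%, and 7 at P28.5, or 3.95%, beside 2.86%. The listed positions show what lies behind the symbol counts. Plus-strand members had 132 distinct positions at P28, of which 122 lay within 2000 bp of the gene's own 5′ end, and 111 at P28.5, of which 104 did. Minus-strand members had 15 positions at P28, of which 7 lay there, and 9 at P28.5, of which 9 did. A position of a plus-strand member equalled an annotated 5′ end 50 times at P28 and 48 times at P28.5, and a position of a minus-strand member did so 0 times. The lists therefore carried few starts of minus-strand Zfp genes, and an unlisted minus-strand gene cannot be told apart from a gene whose start was not among those clustered.

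Counting positions in place of symbols gave similar totals. With any listed position within 2000 bp of an annotated 5′ end, 71 Zfp genes were listed at P28, or 19.3%, beside 17.3% of all genes, and 59 at P28.5, or 16.1%, beside 14.8%. With a position that also carried the gene's own symbol, 60 were listed at P28, or 16.3%, beside 13.4%, and 49 at P28.5, or 13.4%, beside 11.1%. This last count used no synonyms, so genes of the background listed only through a synonym were left out, while no Zfp gene needed one. In these position counts the Zfp share was above the background by 1.3 to 3.0 percentage points, and the background lay inside the Zfp interval each time. The gap between the strands remained in the count that ignores the symbol. Plus-strand members then had 56 of 190 listed at P28, or 29.5%, beside 25% of plus-strand genes, and minus-strand members 15 of 177, or 8.47%, beside 9.58%. At P28.5 these were 44, or 23.2%, beside 20.9%, and 15, or 8.47%, beside 8.62%.

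The comparison of clustered with isolated Zfp genes asks whether tandem arrays, where most KRAB zinc finger genes lie, were listed less often. A cluster was a run of at least 3 members whose neighbouring 5′ ends lay at most 250 kb apart, a pair was a run of 2, and an isolated gene had no other member within 250 kb. This gave 185 clustered genes in 30 clusters, 50 genes in pairs and 132 isolated genes. At P28 clustered and isolated genes were close, with 33 clustered genes listed, or 17.8% (13.0 to 24.0), and 25 isolated genes, or 18.9% (13.2 to 26.5). At P28.5 the isolated share was higher, with 23 clustered genes, or 12.4% (8.43 to 18), and 24 isolated genes, or 18.2% (12.5 to 25.6). The intervals overlapped at both ages. Pairs had 14 of 50 at P28, or 28% (17.5 to 41.7), and 8 at P28.5, or 16%.

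**Figure D1:**
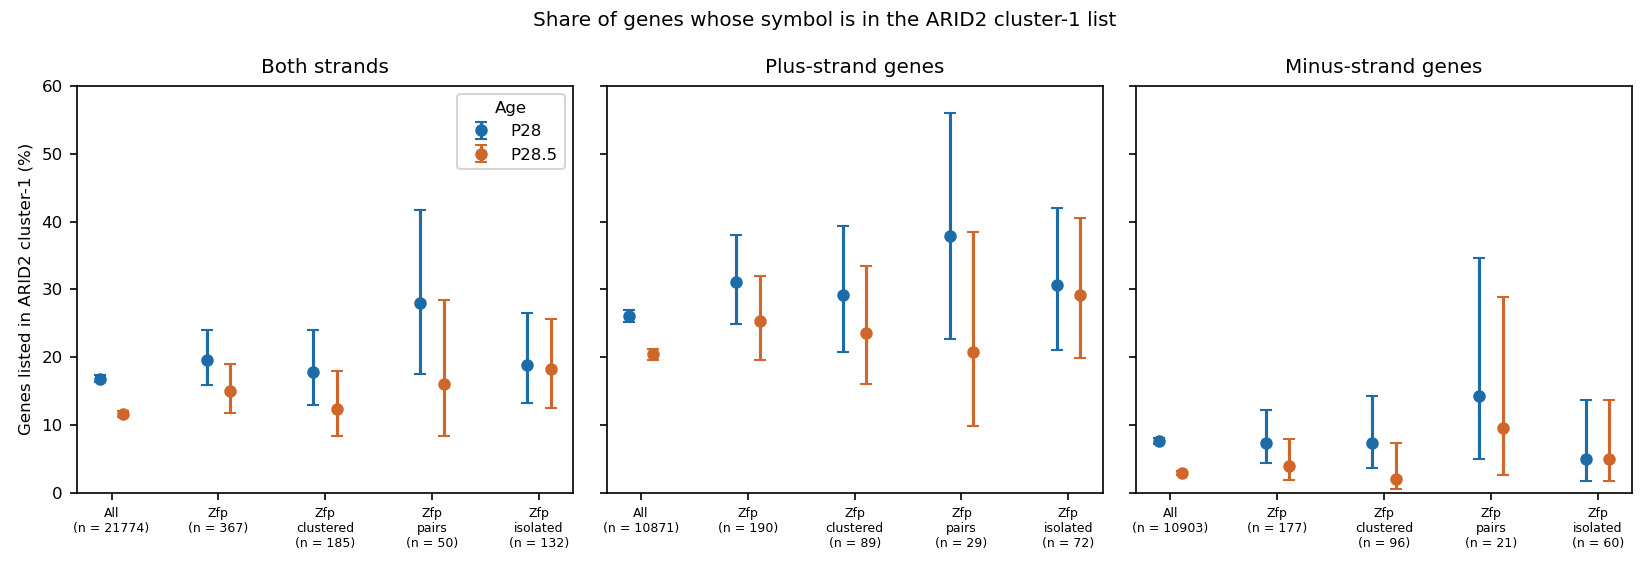
Percentage of genes whose symbol is in the ARID2 Cl-1 list (y axis) for all protein-coding genes, all Zfp genes and clustered, paired and isolated Zfp genes (x axis), at P28 (blue) and P28.5 (orange), with both strands together and apart. Points are shares and bars are 95% Wilson intervals for counting error. Plus-strand groups lie above minus-strand groups throughout, while the intervals of clustered and isolated Zfp genes overlap in each panel.

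Among plus-strand genes, where the lists are most complete, 26 of 89 clustered genes were listed at P28, or 29.2%, and 22 of 72 isolated genes, or 30.6%. At P28.5 the counts were 21, or 23.6%, and 21, or 29.2%. By any position near a 5′ end, 32 clustered and 27 isolated genes were listed at P28, which is 17.3% and 20.5%, and 23 and 28 at P28.5, which is 12.4% and 21.2%. The gap between places was thus larger at P28.5 than at P28, and whether it differs between the ages was not tested. Clustered genes listed at P28.5 had mostly been listed at P28 as well, 20 of 23 or 87%, whereas 14 of 24 isolated genes had, or 58.3%. Of all genes listed at P28.5 it was 73.1%, between these shares. The counts are small and the difference was not tested. The 10 isolated genes listed at P28.5 alone were Zfp39, Zfp184, Zfp202, Zfp318, Zfp335, Zfp511, Zfp523, Zfp541, Zfp639 and Zfp821, of which several are named here after their values were seen.

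Listing was uneven among the 30 clusters. No member was listed at either age in 11 clusters with 47 members together, 1 member was listed in 10 clusters, and 2 or more in 9. The 4 clusters of at least 10 genes had 8 of 64 members listed at P28, or 12.5% (6.47 to 22.8), and 5 at P28.5, or 7.81% (3.38 to 17). Clusters of 5 to 9 genes had 17 of 74 at P28, or 23.0% (14.9 to 33.7), and 13 at P28.5, or 17.6% (10.6 to 27.8). Clusters of 3 to 4 genes had 8 of 47, or 17%, and 5, or 10.6%. The shares of the largest and the mid-sized clusters have overlapping intervals.

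**Figure D2:**
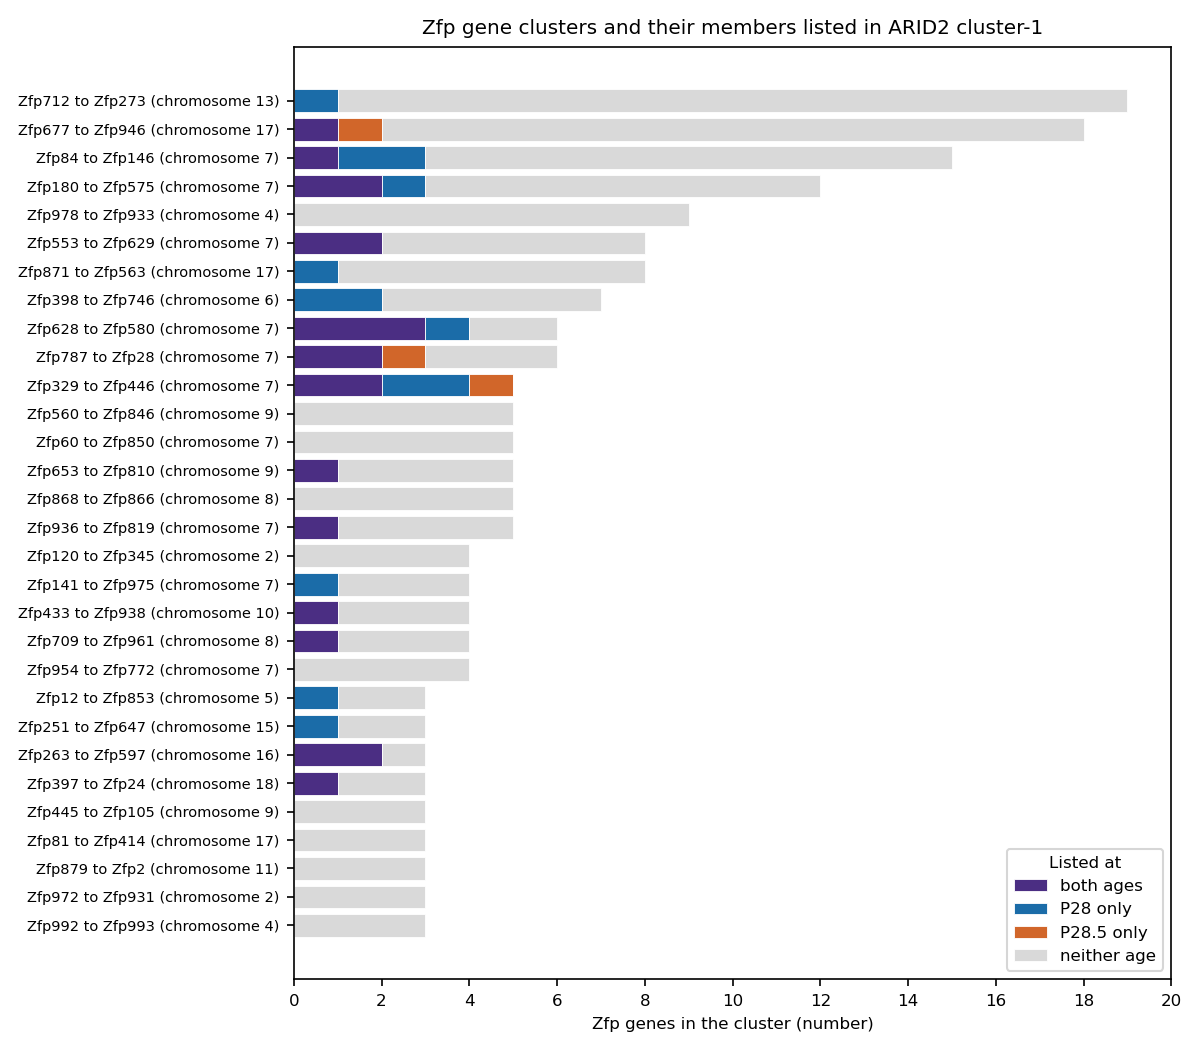
Number of Zfp genes (x axis) in each of the 30 clusters, named by the first and last member along the chromosome (y axis), split by whether the symbol was in the Cl-1 list at both ages (purple), at P28 alone (blue), at P28.5 alone (orange) or at neither (grey). The 2 largest clusters, with 19 and 18 genes, have 1 and 2 listed members, and the chromosome 7 cluster from Zfp329 to Zfp446 has all 5.

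The largest cluster, from Zfp712 to Zfp273 on chromosome 13, held 19 genes, of which 15 lie on the minus strand. By symbol Zfp738 alone was listed there, with 2 rows at P28 and none at P28.5, at a position inside the gene 10619 bp from its own 5′ end. When symbols were ignored, Zfp748 of this cluster had a listed position 50 bp from its 5′ end at P28. The cluster from Zfp677 to Zfp946 on chromosome 17 held 18 genes, all with a KRAB pattern and 12 on the plus strand. Zfp943 was listed there at P28.5, exactly at its annotated 5′ end, and Zfp946 at both ages at a position 73188 bp from its own. The 9 genes of the chromosome 4 cluster from Zfp978 to Zfp933 all had a KRAB pattern and none was listed, though 5 lie on the plus strand. The median of the observed over expected CpG ratio around their outermost 5′ ends, 0.187, was the lowest of the 30 clusters.

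Other clusters had several listed starts. On chromosome 7 the cluster from Zfp628 to Zfp580 had 4 of 6 genes listed, each at its own 5′ end. Zfp628, Zfp524 and Zfp865 were listed at both ages, with 2, 3 and 3 positions at each, and Zfp580 at P28 with 1. None of the 6 had a KRAB pattern. In the chromosome 7 cluster from Zfp329 to Zfp446 all 5 genes carried a listed symbol at some age, but 3 of them did so at their own 5′ end. Zfp110 and Zfp446 were listed there at both ages and Zfp128 at P28, while the row of Zfp329 lay at its 3′ end and the position of Zfp324 was 15858 bp from its 5′ end. The chromosome 7 cluster from Zfp787 to Zfp28 had Zfp667 and Zfp78 at both ages and Zfp444 at P28.5, all at their own 5′ ends. On chromosome 16, Zfp263 and Zfp174 were listed at both ages at their own 5′ ends, in a cluster of 3.

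The remaining clusters with listed members had 1 to 3 each. In the cluster from Zfp180 to Zfp575 on chromosome 7, Zfp180 and Zfp428 were listed at both ages and Zfp235 at P28. In the chromosome 7 cluster from Zfp84 to Zfp146, Zfp382 was listed at both ages, and Zfp30 and Zfp74 at P28, Zfp74 at a position outside the gene. Zfp771 and Zfp689 (chromosome 7), Zfp719 (chromosome 7), Zfp961 (chromosome 8), Zfp653 (chromosome 9), Zfp873 (chromosome 10) and Zfp397 (chromosome 18) were listed at both ages. Zfp12 (chromosome 5), Zfp398 and Zfp956 (chromosome 6), Zfp976 (chromosome 7, at a position outside the gene), Zfp7 (chromosome 15) and Zfp871 (chromosome 17) were listed at P28 alone. The other 92 protein-coding genes that lie between the first and the last member of a cluster were listed in 9 cases at P28, or 9.78%, and in 5 at P28.5, or 5.43%.

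The CpG content of the starts moved with the place of the genes. The CpG ratio is the observed count of CpG divided by that expected from the C and G content, in the 1001 bases centred on a 5′ end, and the highest ratio over a gene's annotated 5′ ends was used. Its median was 0.617 over all genes and 0.643 over Zfp genes. It was 0.594 in clustered, 0.617 in paired and 0.724 in isolated Zfp genes. By quintiles of this ratio over all genes, 34.1% of clustered Zfp genes were in the lowest 2 and 25.9% in the highest 2. Isolated Zfp genes had 16.7% in the lowest 2 and 55.3% in the highest 2.

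Zfp genes with few CpG were rarely listed at a start. In the lowest 2 quintiles, a listed position lay within 2000 bp of a 5′ end in 3 of 103 Zfp genes at P28, or 2.91% (0.995 to 8.22), beside 3.93% of all genes there. At P28.5 it was 0 of 103, which allows a share of up to 2.91%, beside 0.586%. In the middle quintile it was 27 of 131 at P28, or 20.6% (14.6 to 28.3), beside 17.3%, and 19 at P28.5, or 14.5% (9.49 to 21.5), beside 12.3%. In the highest 2 quintiles it was 41 of 133, or 30.8% (23.6 to 39.1), beside 30.6%, and 40, or 30.1% (22.9 to 38.3), beside 30.2%. By this position count the Zfp interval held the share of all genes in each of these strata. By symbol it did so in the lowest 2 and the highest 2 quintiles, and in the middle quintile at P28. In the middle quintile at P28.5 the Zfp share by symbol was 15.3% (10.1 to 22.4), above the 9.44% of all genes. For listing at both ages it was 11.5% there, with a lower bound of 7.06%, beside 6.89%.

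Within the strata, clustered genes were not consistently below isolated genes. In the highest 2 quintiles 17 of 48 clustered genes had a listed position at P28, or 35.4% (23.4 to 49.6), and 21 of 73 isolated genes, or 28.8% (19.7 to 40.0). At P28.5 the counts were 13, or 27.1% (16.6 to 41.0), and 22, or 30.1% (20.8 to 41.4). In the middle quintile 14 of 74 clustered genes had one at P28, or 18.9%, and 5 of 37 isolated genes, or 13.5%, and at P28.5 it was 10, or 13.5%, and 6, or 16.2%. In the lowest 2 quintiles 1 of 63 clustered and 1 of 22 isolated genes had one at P28, and none of either at P28.5. By symbol, the highest 2 quintiles had 16 clustered genes at P28, or 33.3%, and 17 isolated genes, or 23.3%, and at P28.5 12, or 25%, and 17, or 23.3%. The middle quintile by symbol had 14, or 18.9%, and 5, or 13.5%, at P28, and 11, or 14.9%, and 6, or 16.2%, at P28.5. The order of clustered and isolated genes thus turned at P28 in the upper strata by both counts, and at P28.5 in the highest 2 quintiles by symbol.

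**Figure D3:**
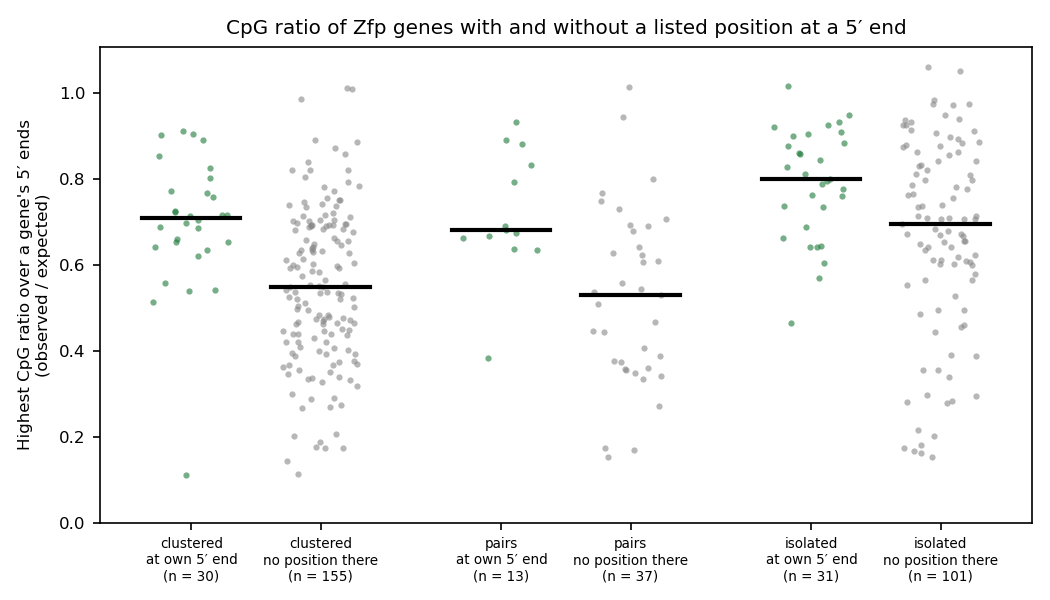
Highest CpG ratio over the annotated 5′ ends (y axis, observed over expected) of each Zfp gene, by place and by whether a position under its own symbol lay within 2000 bp of one of its 5′ ends at either age (green) or not (grey). Each point is a gene and black lines are medians. The medians are 0.709 and 0.548 in clusters, 0.682 and 0.531 in pairs and 0.799 and 0.696 in isolated genes.

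The result depends on which 5′ end is measured. With the outermost annotated 5′ end, 5 of 29 Zfp genes in the lowest quintile were listed by symbol at P28, or 17.2% (7.60 to 34.5), beside 6.54% of all genes. At P28.5 it was 4, or 13.8% (5.50 to 30.6), beside 2.02%. Among these, Zfp369 at both ages and Zfp976 at P28 had no listed position within 2000 bp of an own 5′ end. With the highest ratio over all 5′ ends the lowest quintile held 18 Zfp genes, of which 1 was listed at P28 and 0 at P28.5. Zfp821 and Zfp41 show the difference. Their ratios at the outermost 5′ end were 0.163 and 0.179, and their highest ratios were 0.900 and 0.858, at the starts where their positions were listed.

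Short motifs were counted in the RefSeq promoters, 1 window of 300 bases per gene, available for 305 of the 367 Zfp genes and 17492 genes in all. The window was the first entry of the gene and need not be the start at which a position was listed. Zfp446 and Zfp397 have no entry. The letters CCGGAAG, found in binding sites of ETS factors, occurred on either strand in 22.3% (18 to 27.3) of Zfp promoters and 11.9% of all. Genes were split by whether a position under their own symbol lay at a 5′ end at either age. Among all genes, 20.7% of promoters with such a position and 10.1% without held CCGGAAG. Among Zfp genes the order was the opposite, with 7 of 60, or 11.7% (5.77 to 22.2), and 61 of 245, or 24.9% (19.9 to 30.7). On the plus strand alone it was 5 of 52 Zfp promoters, or 9.62% (4.18 to 20.6), and 25 of 101, or 24.8% (17.4 to 34.0). The intervals of Zfp promoters with and without a position overlap in both counts. Over the 367 Zfp genes, 32.4% of those with such a position and 52.2% of those without it had a KRAB pattern. The letters GCGCATGC, which are part of the site of NRF1, occurred in 10.0% and 4.49% of Zfp promoters with and without a listed position, beside 7.89% and 2.71% of all promoters. CCAAT occurred in 43.3% and 52.2% of Zfp promoters, beside 42.8% and 38.2%. A match of letters is a description and no evidence of binding.

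Zfp genes with a KRAB pattern had lower shares than those without it, except among isolated genes. Of the 177 genes with a KRAB pattern 28 were listed at P28, or 15.8% (11.2 to 21.9), and 19 at P28.5, or 10.7% (6.98 to 16.2). Of the 190 without it 44 were listed, or 23.2% (17.7 to 29.7), and 36, or 18.9% (14 to 25.1). Clustered genes with the pattern had 17 of 126 at P28, or 13.5%, and clustered genes without it 16 of 59, or 27.1%. At P28.5 these were 11, or 8.73%, and 12, or 20.3%. Isolated genes had the opposite order, with 8 of 26 with the pattern at P28, or 30.8% (16.5 to 50), and 17 of 106 without it, or 16% (10.3 to 24.2). These intervals overlap. Some of these isolated genes had no listed position near an own 5′ end at P28. With the pattern they were Zfp369, Zfp808 and Zfp958, whose nearest positions were 58008, 105518 and 64186 bp away. Without it, Zfp609 had its nearest position 4552 bp away. Genes with 1 to 4 C2H2 patterns were listed in 15 of 42 cases at P28, or 35.7% (23.0 to 50.8), and in 13 at P28.5, or 31.0% (19.1 to 46.0). Genes with 5 to 9 had 20 of 95, or 21.1% (14.1 to 30.3), and 19, or 20% (13.2 to 29.1), and genes with 10 to 14 had 20 of 141, or 14.2% (9.37 to 20.9), and 16, or 11.3% (7.11 to 17.6). Genes with 15 or more had 16 of 78, or 20.5% (13.0 to 30.8), and 7, or 8.97% (4.42 to 17.4). At P28.5 the Wilson intervals of the groups with 1 to 4 and with 15 or more patterns did not overlap. At P28 they did, and the shares did not fall steadily with the number of patterns. The 11 genes with no C2H2 pattern, of which only Zfp839 was listed, and at P28 alone, are outside these groups. The number of patterns also moved with place, with a median of 12 in clustered and 8 in isolated genes.

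Under Zfp symbols the lists held 231 rows at P28 and 168 at P28.5, at 147 and 120 distinct positions. The lists had 82 positions in common, or 55.8% of the P28 positions and 68.3% of the P28.5 positions. Rows are start sites of transcript models, so several rows mark a gene with many models and not a higher signal. The 10 genes with the most distinct positions over both lists were Zfp821, Zfp207, Zfp148, Zfp639, Zfp667, Zfp873, Zfp12, Zfp382, Zfp384 and Zfp41. Zfp574, Zfp719 and Zfp740 had 4 as well, and this tie was broken by the order of the symbols.

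Zfp207 encodes BuGZ, a kinetochore and spindle protein that binds the checkpoint protein BUB3. It had 34 rows at P28, 21 of them at 1 position 2 bp from an annotated 5′ end, and none at P28.5, when the nearest listed position was 45328 bp from its 5′ ends. Zfp821 had the reverse pattern, with 7 positions at P28.5 and none at P28. Zfp639 likewise had 5 positions at P28.5 and none at P28, and Zfp12 had 4 at P28 and none at P28.5. Zfp148, which binds GC-rich promoters, had 4 positions at P28 and the same with 1 more at P28.5. Zfp667, Zfp382 and Zfp41 had 5, 4 and 4 positions at each age. Zfp873 had 5 at each age, of which 4 lay at its own 5′ end and 1 was 35195 bp away. Zfp384 had 3 at each age.

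**Figure D4:**
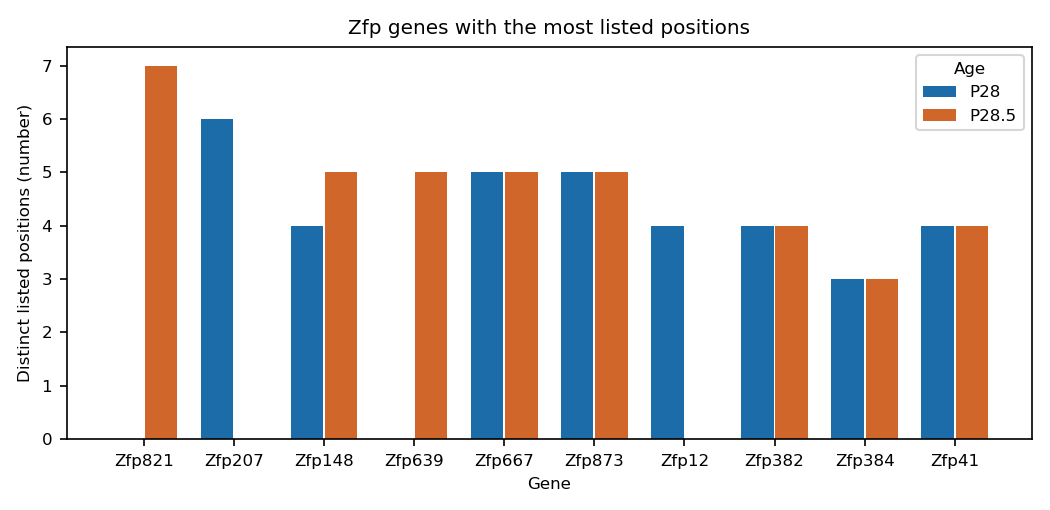
Number of distinct listed positions (y axis) at P28 (blue) and P28.5 (orange) for the 10 Zfp genes with the most positions over both lists (x axis). Zfp207 and Zfp12 have positions at P28 alone, with 6 and 4, and Zfp821 and Zfp639 at P28.5 alone, with 7 and 5.

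Among 28 Zfp genes chosen for a known role, 7 appeared in each list, and 4 of these in both. Their share was 25% (12.7 to 43.4) at each age, and this interval held the shares of all Zfp genes, 19.6% and 15%, and at P28 the 16.8% of all genes, while the 11.6% at P28.5 lay below it. The genes at both ages were Zfp143, an activator that binds promoters, Zfp148, Zfp384 and Zfp638, a nuclear protein that binds cytidine-rich DNA. Zfp143 had 3 positions at each age. Zfp207, Zfp326 and Zfp410 were listed at P28 alone, the latter pair with 1 position each. Zfp326 acts in the coupling of transcription to splicing, and Zfp410 activates the remodeller gene Chd4. Zfp318, Zfp335 and Zfp541 were listed at P28.5 alone, each with 2 positions within 2000 bp of an own 5′ end. Zfp541 is expressed in spermatocytes and is needed for the end of prophase-I. Its 2 positions, 1 bp apart, were both annotated 5′ ends. Zfp335 lies on the minus strand, and its nearest listed position was 345 bp from a 5′ end. That position was 161 bp from the 5′ end of Zfp335os on the opposite strand, so it cannot be assigned to 1 of these genes.

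The other 18 of these genes were listed at neither age. They include the KRAB zinc finger genes with the best known targets, Zfp57 and Zfp568, which act at imprinted genes, and Zfp809, which silences retroviral DNA. All 3 lie on the plus strand, and the highest CpG ratios of their starts were 0.643, 0.887 and 0.575. The nearest listed position to a 5′ end of Zfp809 was 154232 bp away at each age. Also unlisted were the pluripotency genes Zfp42 and Zfp281, the ribosome quality control ligase gene Zfp598 and the developmental regulators Zfp423, Zfp462 and Zfp521. The rest were Zfp36, Zfp105, Zfp106, Zfp131, Zfp217, Zfp292, Zfp407, Zfp451 and Zfp644. Of the 18, 11 lie on the minus strand, where few starts were listed.

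Some listed positions of Zfp genes lay near the start of a gene on the opposite strand. At P28, 15 of the 72 listed Zfp genes had a listed position within 1000 bp of the 5′ end of an opposite-strand gene, or 20.8%, and 12 of 55 at P28.5, or 21.8%. With positions under the own symbol within 2000 bp of an own 5′ end alone, it was 14 of 60 at P28, or 23.3% (14.4 to 35.4), beside 37.4% of all protein-coding genes so listed, and 12 of 49 at P28.5, or 24.5% (14.6 to 38.1), beside 43.5%. Such a position cannot be assigned to 1 of the genes. The closest were the position of Zfp871 at P28, which equalled the 5′ end of Gm17115, and those of Zfp873 with Gm46195 at 38 bp and Zfp148 with 1700007L15Rik at 39 bp. Zfp511 had Tubgcp2, a gamma-tubulin complex gene, at 41 bp. The position of Zfp128 that lay 43 bp from Gm31152 was 10309 bp from the 5′ end of Zfp128 and so no start of it. The position of Zfp943 lay 56 bp from the start of Zfp942, another Zfp gene, so that the position counted for both at P28.5 when symbols were ignored.

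Related genes give a setting for these shares. Of 25 genes for corepressors that act with KRAB zinc finger proteins, 11 were listed at P28, or 44.0% (26.7 to 62.9), and 13 at P28.5, or 52.0% (33.5 to 70.0). At both ages 9 were listed, all on the plus strand. They were Trim28, the KRAB-binding scaffold, its relative Trim24, the HP1 genes Cbx1 and Cbx3, the SETDB1 cofactor Atf7ip, the HUSH subunit gene Mphosph8, the deacetylase gene Hdac2, the remodeller gene Smarcad1 and Uhrf1, which couples DNA methylation to replication. Setdb1, the methyltransferase recruited by TRIM28, was at neither age and lies on the minus strand. Zfp genes with a KRAB pattern were listed at 15.8% and 10.7%, and both of their intervals lie below those of the corepressor genes. Of the corepressor genes 18 of 25 lie on the plus strand and 24 are in the highest 2 quintiles of the CpG ratio, with a median of 0.954, whereas 89 of the 177 KRAB-pattern Zfp genes lie on the plus strand and 31 are in those quintiles, with a median of 0.541. On the plus strand within those quintiles 10 of 18 corepressor genes were listed at P28, or 55.6% (33.7 to 75.4), and 7 of 15 KRAB-pattern Zfp genes, or 46.7% (24.8 to 69.9). At P28.5 it was 13, or 72.2% (49.1 to 87.5), and 7, or 46.7% (24.8 to 69.9), and these intervals overlap at both ages. Among all genes in those quintiles on either strand, the share by symbol was 27.4% for P28 and 23.7% for P28.5. These shares include minus-strand genes, of which few were listed, so they are a low background for plus-strand genes. Whether corepressor genes differ from other plus-strand genes of similar CpG ratio was not tested.

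Among other zinc finger families, 11 of 40 Zbtb genes were listed at P28, or 27.5% (16.1 to 42.8), and 10 at P28.5, or 25% (14.2 to 40.2). Klf and Sp genes had 8 of 26, or 30.8% (16.5 to 50), and 9, or 34.6% (19.4 to 53.8). Zscan and Zkscan genes had 4 of 27, or 14.8%, and 5, or 18.5%. The other 261 genes with at least 3 C2H2 patterns were listed in 33 cases at P28, or 12.6% (9.15 to 17.2), and in 22 at P28.5, or 8.43% (5.63 to 12.4). At both ages Zbtb5, Zbtb7a, Zbtb9, Zbtb11, Zbtb12, Zbtb22 and Zbtb44 were listed, with Zscan2, Zscan12, Zkscan5, Klf5, Klf6, Klf9, Klf10, Klf11, Sp1, Sp2 and Sp9. The Zfp shares of 19.6% and 15% lay inside the intervals of the Zbtb, Zscan and Zkscan genes at both ages. They lay above the interval of the other 261 genes at both ages, and inside that of the Klf and Sp genes at P28 and below it at P28.5.

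**Figure D5:**
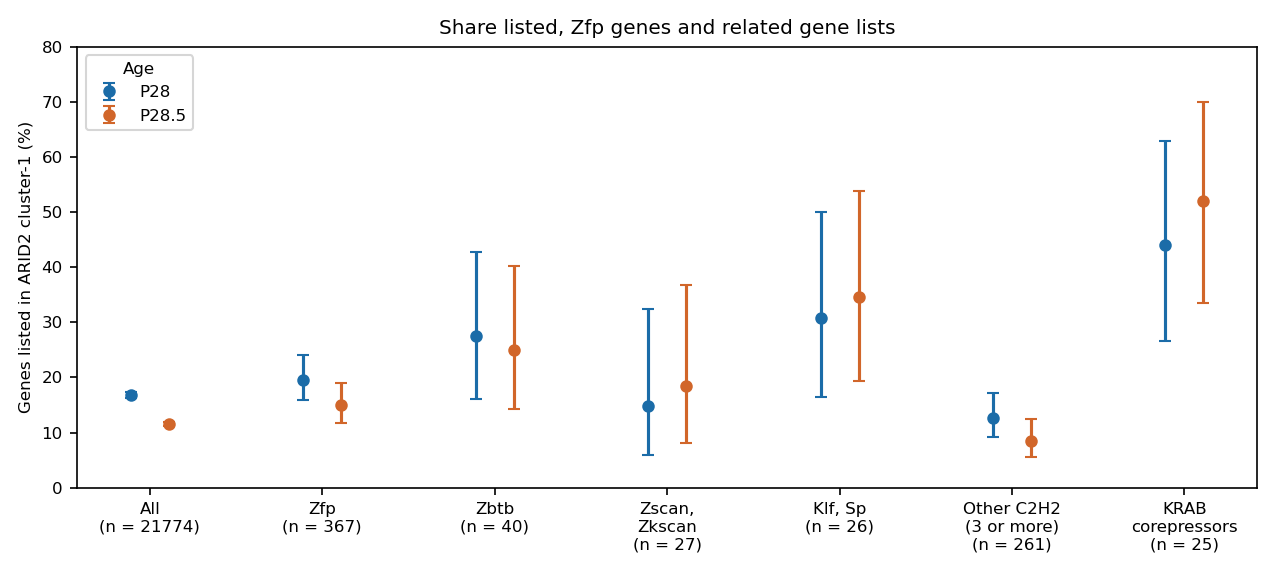
Percentage of genes listed in ARID2 Cl-1 by symbol (y axis) at P28 (blue) and P28.5 (orange) for all protein-coding genes, Zfp genes, other zinc finger gene lists and KRAB corepressor genes (x axis). Points are shares and bars are 95% Wilson intervals. The corepressor genes have the highest shares, 44.0% and 52.0%, and Zfp genes lie at 19.6% and 15%. The groups are not matched for strand or CpG ratio.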

How the data were processed

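The data were 2 lists of TSS positions, 1 for each age, read as deposited. The authors trimmed the reads, aligned them to mm10 with Bowtie2, processed them with SAMtools and deepTools, took the log2 ratio of ARID2 to the control, averaged the replicates and grouped RefSeq TSSs by k-means. No column holds a level or a depth, the number of columns that belong to no sample is 0, and the BRG1 libraries, tracks and peaks were not analysed here. TSS refers to a single position with a gene symbol and no strand.

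A list symbol was matched to a gene's symbol, or else to a synonym that only 1 gene carries, and 0 Zfp genes needed a synonym. The count by symbol with position used gene symbols alone. The RefSeq annotation and sequence of GRCm38.p6, the assembly behind mm10, gave strands, 5′ ends and CpG ratios. The positions were 1-based, since 6383 of 11553 rows at P28 equalled a transcript end as written. Proteins were translated from coding sequence, 1 per gene, the longest curated protein or, where there was none, the longest predicted one. The C2H2 pattern was C, 2 to 4 residues, C, 12 residues, H, 3 to 5 residues, H. The KRAB pattern chosen at first, with a spacer of 4 residues, matched 0 members. After the values were seen the spacer was changed to 3 residues and other places were changed too. The first residue could then be F or Y, the residue after the spacer F or L, and that before the final EW D, E, K or G. Wilson intervals (95%) were given for shares, with a limit of 3 counts where a share was 0. Counting and clustering were tested on simulated data. Python 3.11.15, numpy 2.4.6, pandas 2.3.3 and matplotlib 3.10.9 were used.

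The members, gene lists, named genes and alternatives were chosen with earlier results of these data known. Named genes are the 10 with the most positions, 28 with a known role, the listed members of clusters, the 6 closest to an opposite-strand start, those with no C2H2 pattern and related genes listed at both ages. Alternatives were counting by position within 2000 or 500 bp, symbols as written, 1 strand, members with a C2H2 pattern, gaps of 100 or 500 kb, clusters of at least 5 members, and runs over all C2H2 genes. Counting by symbol with position, and the highest CpG ratio over all 5′ ends, were added after seeing the data.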

Additional observations from a re-analysis of the deposited data

How the results depend on the processing

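Of 65 values under an alternative, 51 lay within the Wilson interval of the reported share and 14 outside it, and all 14 came from counting 1 strand. The values with symbols as written are among the 51 and could not differ, since 0 Zfp genes needed a synonym. Plus-strand genes alone gave 31.1% of Zfp genes at P28, 25.3% at P28.5 and 18.9% at both ages. Clustered genes then gave 29.2% and 23.6%, and isolated genes 30.6% and 29.2%. Minus-strand genes alone gave 7.34%, 3.95% and 2.82%. Clustered genes then gave 7.29% and 2.08%, and isolated genes 5.00% and 5.00%. The lists carry few minus-strand starts, as the listed positions show. The isolated share was above the clustered share in 10 of 12 settings at P28 and in 12 of 12 at P28.5, although these settings share most of their genes. The settings include the main count and symbols as written, which are the same for Zfp genes. No paired analysis was possible because the lists average the replicates. The lists hold no depth, so a gene that is not listed may still carry ARID2 below the level of Cl-1.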

Other observations

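Rows with a Zfp symbol also marked genes that are not protein-coding and so were not members. Zfp572, annotated as a transcribed pseudogene, had 3 rows at P28 and 2 at P28.5, and Zfp783, annotated as a long non-coding RNA, had 1 row at P28. Among the other genes with at least 3 C2H2 patterns, Rest, which encodes a repressor of neuronal genes, the early response gene Egr1, the germinal centre repressor gene Bcl6 and Snai1 were listed at both ages. They are named after their values were seen.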
